A study of Drosophila melanogaster with 18 samples.

Results

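The reporters described here lay next to the centromeres or on chromosome 4 of Drosophila Kc167 cells, an embryonic cell line. They were chosen by the integration site in the deposited table alone. A reporter was taken if it mapped to a heterochromatic scaffold (3LHet, 3RHet or XHet), to chromosome 4, or to the centromere-facing end of an arm. These ends were 2L from 21 Mb, 3L from 22 Mb, X from 20.5 Mb and 3R up to 1.5 Mb, in the coordinates of build dm3. The rule took 63 of 749 reporters, and reporters without any cDNA count in a condition were kept. Of the 63, 15 were on the scaffolds (7 on 3LHet, 7 on 3RHet and 1 on XHet), 5 on chromosome 4, 13 on proximal X, 11 on proximal 3L, 10 on proximal 3R and 9 on proximal 2L. They were set against the 561 other reporters on 2L, 3L, 3R and X, which are called the arm reporters. The remaining 125 reporters mapped elsewhere. The limits are round coordinates and not measured borders of heterochromatin. The table holds no chromatin mark against which the choice could be checked.

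In this assay, called TRIP, a pool of cells carries the same reporter at many sites, and each copy is marked by its own DNA barcode. The reporter was GFP under the copper-inducible metallothionein promoter (pMT) with 5 UAS elements, to which the yeast factor GAL4 binds. Cells of the pool were transiently transfected to express the GAL4 DNA-binding domain fused to HP1a (GAL4-HP1), that domain fused to ACF1 (GAL4-ACF1), ACF1 without it (ACF1), or the domain alone (GAL4, the control). All proteins carried a V5 tag and were expressed from the pAc5 vector together with mCherry. In all conditions GFP was induced with 0.5 mM copper sulfate, and mCherry-positive cells were sorted by day 2 after transfection. Each condition had 2 replicates, each with a cDNA library of the reporter mRNA and a gDNA library of the integrated barcodes. The series' design text describes them as technical and the study's methods as biological, so p-values measure only the spread between these libraries, which may be technical. Expression is the deposited value, the ratio of cDNA to gDNA counts times 1 factor per library, in arbitrary units.

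Pericentric heterochromatin is rich in repeats and carries methylated lysine 9 of histone H3, the mark that HP1a binds. HP1a recruits further silencing factors, and genes placed into such regions often vary in expression from cell to cell, which is known as position effect variegation. Chromosome 4 of Drosophila is coated with HP1a over most of its length, yet many of its genes are active. ACF1 is the regulatory subunit of the ISWI nucleosome remodelers ACF and CHRAC, which space nucleosomes regularly.

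The cDNA libraries held 2616438 to 4181903 counts and the gDNA libraries 1535023 to 2860908. No molecular identifiers are described, so intervals and bounds cover counting error only. The gDNA counts behind the 63 reporters were not low. Their median count per library was 1190 to 2607, against 1050 to 1987 for the arm reporters, and the lowest gDNA count of any of the 63 was 93. The cDNA counts were concentrated in a few sites. The reporters on 3R at 398375, on chromosome 4 at 547814 and on X at 21262719 held 78.9% to 86.1% of all cDNA counts of the 63 in each library. A count of 0 in a single library is therefore weak evidence of silence. In GAL4-HP1, 13 of the 63 were at 0 in 1 library only, 11 of them in replicate 1, and the other library held up to 280 counts.

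The barcode is the only sequence that identifies a reporter, and those of the reporters on which the results turn are given here, 5′ to 3′ and without capitals because no part of a barcode has a function. They are first the site with a call for GAL4-HP1, then the sites with a call for GAL4-ACF1, and last the 3 sites that held most counts and a pair of neighbours on 3RHet.
2L 22921162: cggttgctaatcgtgctattc
X 20558939: cggagcggcagtatcctgggc
3R 1035381: ctttgagtgccagtgcctagg
3RHet 2353716: ttgggccgtgtggataacctg
3LHet 2481486: atagctgagcggtaaaggccg
3L 24289137: ggaaagttgagttgttatttc
3R 904236: attggaactgctgcccttagg
X 22197563: catcgcatcattctatttatg
2L 21858516: ggatgcggtgtggattgcaat
4 1252113: gtctatgcaaagtttgtcacg
3R 398375: ttcggatgtccgcaggattca
4 547814: ggtacttatgttcctcgatcg
X 21262719: tttaagcatatttgatccggt
3RHet 2506694: gccttatcctttacgcgagtc
3RHet 2507993: cggcagatgctttcgtaattt

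In the GAL4 control the 63 reporters were expressed somewhat below the arm reporters, but the 6 regions differed widely. The median expression of the 63 was 22.2 and 17.3 (replicates 1 and 2), against 28.4 and 24.3 for the arm reporters. On the log2 scale the median of the 63 lay 0.43 ± 0.095 below that of the arm reporters (SD over 2 libraries), at −0.36 and −0.49. The scaffolds had the lowest medians, at 2.53 and 6.02, and without them the difference changed sign, to 0.21. Proximal 2L (16.1 and 9.96) and proximal 3L (10.4 and 16.6) lay below the rest of their own arms, which had 23.0 and 17.9 on 2L and 35.7 and 32.0 on 3L. Proximal X (34.6 and 28.2) and proximal 3R (60.7 and 54.2) lay above the rest of X (26.4 and 18.8) and of 3R (35.1 and 31.1). Chromosome 4 was also high, at 79.8 and 38.2. Proximal 3R thus did not have the low expression that a pericentric label might imply. Without its 10 reporters the difference from the arm reporters was −0.88. Spread within the 63 was large. Mean expression in GAL4 ran from 0 to 2129, and 23 of the 63 (36.5%) lay below the lower quartile of the arm reporters, 9.85. Above their upper quartile, 79.6, lay 12 of the 63 (19.0%).

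The reporters on chromosome 4 spanned nearly the whole range. The reporter at 547814 was among the strongest of the table, ranked 33 of 749 in GAL4, with an expression of 288 and 148 in GAL4-HP1, 326 and 356 in GAL4-ACF1, 582 and 479 in ACF1 and 557 and 431 in GAL4. Both GAL4-HP1 and both GAL4-ACF1 libraries lay below both GAL4 libraries. The reporter at 966930 had 91.8 and 81.6 in GAL4-HP1, 307 and 161 in GAL4-ACF1, 282 and 96.5 in ACF1 and 155 and 46.4 in GAL4. Only its GAL4-ACF1 libraries were clear of the GAL4 libraries, and they were higher. Its share of the cDNA library was not higher, at 0.0266% and 0.0241% in GAL4-ACF1 against 0.0392% and 0.0331% in GAL4, while the gDNA counts were 232 and 299 against 727 and 1306. At 1200624 expression was 0 and 7.52 in GAL4-HP1, 2.47 and 0 in GAL4-ACF1, 26.7 and 6.81 in ACF1 and 79.8 and 35.7 in GAL4. At 1252113 it was 11.8 and 3.66 in GAL4-HP1, 10.6 and 8.01 in GAL4-ACF1, 39.0 and 15.1 in ACF1 and 40.0 and 38.2 in GAL4. At both of these sites GAL4-HP1 and GAL4-ACF1 lay below GAL4 in every library. The reporter at 407950 was near 0 throughout, with cDNA counts of 0 and 59 in GAL4-HP1, 0 and 0 in GAL4-ACF1, 0 and 14 in ACF1 and 8 and 0 in GAL4.

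The 15 reporters on the scaffolds ranged from clear expression in GAL4 to almost none. On 3RHet, 4 of 7 were at or near 0 in GAL4. The reporter at 198757 had 2 and 6 cDNA counts in GAL4-HP1, 1 and 2 in GAL4-ACF1, 3 and 1 in ACF1 and 1 and 2 in GAL4, although its gDNA counts were between 7892 and 16647. At 743345 the cDNA counts were 0 and 2 in GAL4-HP1, 2 and 1 in ACF1, and 0 in both GAL4-ACF1 and both GAL4 libraries, with 1729 to 6562 gDNA counts. At 2478270 the highest count in any library was 1. These sites were present in the DNA and gave almost no reporter mRNA in the GAL4 control either. At 2445889 the counts were 31 and 0 in GAL4-HP1, 1 and 16 in ACF1, and 0 in both GAL4-ACF1 and both GAL4 libraries. No ratio to GAL4 was formed at 743345 and 2445889, where GAL4 was at 0.

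The remaining scaffold reporters were expressed in GAL4, some of them weakly. The highest mean in GAL4 was that of 3RHet at 2506694, described with its neighbour further on, and the next was that of 3LHet at 673443, with 24.6 and 4.86 in GAL4-HP1, 63.9 and 40.4 in GAL4-ACF1, 117 and 26.9 in ACF1 and 69.4 and 76.8 in GAL4. It was lower in both GAL4-HP1 libraries by a wide margin and lower in the GAL4-ACF1 libraries by a small one. Its neighbour in the table, 3LHet at 723944, had 2.51 and 6.19 in GAL4-HP1, 1.28 and 5.07 in GAL4-ACF1, 24.1 and 8.10 in ACF1 and 23.6 and 20.8 in GAL4. The reporter on XHet at 86560 had 1.57 and 2.22 in GAL4-HP1, 3.95 and 35.2 in GAL4-ACF1, 5.59 and 3.62 in ACF1 and 7.86 and 14.2 in GAL4. Both of these sites were clear of GAL4 with GAL4-HP1, and the XHet site was not with GAL4-ACF1, whose replicates differed. On 3LHet at 2044072 expression was 0.651 and 1.53 in GAL4-HP1, 0.448 and 1.73 in GAL4-ACF1, 17.3 and 2.51 in ACF1 and 2.45 and 6.02 in GAL4. The weaker sites on 3LHet had few counts. At 1292343 the cDNA counts were 58 and 0 in GAL4-HP1, 0 and 0 in GAL4-ACF1, 1 and 0 in ACF1 and 26 and 43 in GAL4. At 2232777 they were 0 and 19 in GAL4-HP1, 0 and 0 in GAL4-ACF1, 1 and 13 in ACF1 and 74 and 0 in GAL4. GAL4-HP1 overlapped GAL4 at both, and GAL4-ACF1 had no count at either.

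With tethered HP1a nearly all of the 63 reporters were below the GAL4 control, and so were nearly all arm reporters. Expression was lower in GAL4-HP1 for 56 of the 61 reporters with a ratio (91.8%), against 502 of 558 arm reporters (90.0%). Both GAL4-HP1 libraries lay below both GAL4 libraries for 38 of the 63 (60.3%), where 61.9% of all 749 reporters did so, and above both for 1 (1.59%), where 1.2% of all did. These counts depend on the scaling between libraries. Over all reporters the median log2 change was −1.49 in the deposited values, −0.66 relative to library totals and −0.0045 after TMM normalization. Library totals and TMM both remove a decrease shared by all reporters, so only the deposited values, which are scaled with the spike-in, can show one. The comparison of the 63 with the arm reporters within a library does not depend on it. Median expression in GAL4-HP1 was 2.98 and 3.66 for the 63 and 13.1 and 6.74 for the arm reporters. The distance between the groups was thus wider than in GAL4. Per library the log2 median of the 63 lay 2.13 and 0.88 below that of the arm reporters in GAL4-HP1, and 0.36 and 0.49 below it in GAL4. Both GAL4-HP1 values lay beyond both GAL4 values, with a difference of means of −1.08 and an exact two-sided permutation p of 0.33, the smallest that 2 libraries against 2 allow.

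The fold change per reporter gave a smaller and less stable contrast. The median log2 fold change of GAL4-HP1 over GAL4 was −1.86 for the 63 reporters (quartiles −3.38 and −0.82) and −1.48 for the arm reporters (quartiles −2.40 and −0.70), a difference of −0.37. Replicate 1 alone gave −1.89 against −1.33, and replicate 2 alone gave −1.90 against −2.00, so the difference was −0.56 and 0.10. Replicate 2 of GAL4-HP1 thus did not show a larger decrease for the 63 reporters. The regions differed among themselves. On proximal 2L the median was −2.71 (−3.38 and −3.14 in the replicates), against −1.78 (−1.51 and −2.03) for the rest of 2L, lower in both replicates. On proximal X it was −2.39 (−2.70 and −1.34), against −1.46 (−1.37 and −1.95) for the rest of X. On proximal 3L it was −1.70 (−2.71 and −1.04), against −1.39 (−1.25 and −1.85) for the rest of 3L. On both X and 3L the order turned between the replicates. Proximal 3R went the other way, with −0.56 (−0.23 and −2.02), against −1.49 (−1.26 and −2.10) for the rest of 3R. The scaffolds had a median of −1.96 over 13 reporters with a ratio, and chromosome 4 had −1.18 over 5. No test sets regions against each other, since reporters share libraries and are not replicates.

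The difference from the arm reporters was not the same at all levels in GAL4. Below an expression of 9.85 lay 23 of the 63 reporters and 140 arm reporters. Among them, 2 of the 63 and 3 arm reporters were at 0 in GAL4 and had no ratio. For those with a ratio, the median log2 fold change of GAL4-HP1 was −2.71 among the 63 and −1.45 among the arm reporters. From 9.85 to 30.0 it was −2.10 against −1.82, and from 30.0 to 79.6 it was −1.93 against −1.50. Above 79.6 the order was the opposite, with −0.90 for 12 of the 63 and −1.23 for 141 arm reporters. The GAL4 value enters both the band and the ratio, so noise in it moves both.

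Reporters without any cDNA count in both GAL4-HP1 libraries made up 5 of the 63 (7.94%) and 10 of the 561 arm reporters (1.78%). In GAL4 these numbers were 2 of 63 (3.17%) and 3 of 561 (0.535%). None of the 5 was on chromosome 4, proximal 2L or proximal 3R. The reporter on X at 22197563 had 252 and 36 cDNA counts in GAL4, 1 and 0 in GAL4-ACF1 and 0 in both ACF1 libraries, and its expression was at least 215-fold lower in GAL4-HP1 than in GAL4, or at least 45.5-fold without GAL4 replicate 1. This bound, like those that follow, takes 3 counts over both libraries as the floor and scales by gDNA counts and the deposited factors. The reporter on 3L at 24289137 had 0 counts in both GAL4-ACF1 libraries, 2 and 33 in ACF1 and 234 and 64 in GAL4, and was at least 142-fold lower in GAL4-HP1, or 50.1-fold without GAL4 replicate 1. On 3LHet at 2455381 the counts were 0 and 1 in GAL4-ACF1, 0 and 22 in ACF1 and 109 and 10 in GAL4, with a level at least 54.9-fold lower in GAL4-HP1, or 9.58-fold without GAL4 replicate 1. Without GAL4 replicate 2 the bounds at these sites were 457-fold, 283-fold and 97.1-fold. All 3 had counts in both GAL4 libraries. The other two, on X at 21507575 and 22166387, had 21 and 15 counts in GAL4 replicate 1 and none in replicate 2, and the bounds were 7.16-fold and 5.57-fold. Without GAL4 replicate 1 neither of them was above 0 in the control. With edgeR's quasi-likelihood test none of the 5 passed. The adjusted p was 0.0839 for 3L 24289137 and X 22197563, and 0.275 for 3LHet 2455381.

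Each reporter's counts were also tested on their own, in a fit of edgeR's quasi-likelihood model to all 749 reporters, for the change in cDNA beyond that in gDNA relative to the library totals, with Benjamini-Hochberg adjusted p under 0.05 as the threshold. For GAL4-HP1 against GAL4, 1 of the 63 passed (1.59%), where 0.267% of all reporters did. Before adjustment, p was under 0.05 for 11 of the 63 and 82 of all. DESeq2 on the same library sizes called 7 of the 63 and 30 of all. The called reporter was on 2L at 22921162, with an expression of 1.42 and 0.681 in GAL4-HP1, 4.89 and 3.50 in GAL4-ACF1, 9.02 and 4.40 in ACF1 and 16.4 and 9.96 in GAL4. Every library of the other conditions lay below both GAL4 libraries at this site. It fell by 2.81 ± 0.47 on the log2 scale (SE, edgeR adjusted p = 0.0433). The call was lost without either GAL4-HP1 library, without either GAL4 library and without ACF1 replicate 2, with adjusted p of 0.0533 to 0.475.

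With tethered ACF1 the 63 reporters were again mostly below GAL4, and more of them had no count. Expression was lower for 57 of 61 (93.4%), against 484 of 558 arm reporters (86.7%). Both GAL4-ACF1 libraries lay below both GAL4 libraries for 37 of the 63 (58.7%), where 60.3% of all reporters did, and above both for 2 (3.17%), where 3.74% did. Both libraries were at 0 for 14 of the 63 (22.2%) and for 57 of 561 arm reporters (10.2%). On the scaffolds 6 of 15 were at 0, of which 2 were also at 0 in both GAL4 libraries, and among the 13 with a ratio it was 4, against 3 of 11 on proximal 3L. Median expression was 3.36 and 3.16 for the 63 and 8.07 and 7.20 for the arm reporters. Per library the log2 median lay 1.26 and 1.19 below that of the arm reporters, both beyond the 0.36 and 0.49 in GAL4, with an exact two-sided permutation p of 0.33, the smallest possible. The median log2 fold change was −2.07 for the 63, −1.71 for the arm reporters and, over all reporters, −1.71 in the deposited values, −1.46 relative to library totals and −0.53 after TMM normalization. In single replicates it was −2.10 against −2.11 in replicate 1 and −2.09 against −1.66 in replicate 2, so the difference of −0.36 was absent in replicate 1. The median on the scaffolds was −5.25 over 13 reporters, the lowest of the 6 regions, and −4.96 in replicate 1. In replicate 2 it was −2.63, above the −3.42 of proximal 3L. The −5.25 was the value of 3RHet at 2506694, whose log2 change was −5.72 in replicate 1 and −2.84 in replicate 2. Its GAL4 expression of 149 in replicate 1 rested on 354 gDNA counts, and it was 9.61 in replicate 2. The reporters that lay above GAL4 in both libraries were the one on chromosome 4 at 966930 and the one on 3R at 398375.

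For GAL4-ACF1 against GAL4, 9 of the 63 passed edgeR's test, all lower (14.3%), where 12.4% of all reporters passed. Before adjustment, p was under 0.05 for 18 of the 63 and 228 of all. With TMM normalization the calls were 6 lower and 1 higher, and DESeq2 with median-of-ratios size factors gave 8 lower and 4 higher. Over all reporters these settings called 7.34% and 15.5%. The number was not stable and fell without either GAL4 replicate, and so did the share over all reporters. The median fitted log2 change over all reporters was −1.26 without GAL4 replicate 1 and −1.49 without GAL4 replicate 2. The 9 came from all 6 regions. On X at 20558939 expression was 1.03 and 0.936 in GAL4-ACF1, against 16.8 and 12.7 in GAL4, and it fell by 3.67 ± 0.65 on the log2 scale (SE, edgeR adjusted p = 0.00595). On chromosome 4 at 1252113 it fell by 1.87 ± 0.53 (SE, edgeR adjusted p = 0.0411), but this call held under 7 of 16 alternatives, and the log2 change was −0.93 with TMM normalization (edgeR adjusted p = 0.303) and −0.70 with DESeq2's median-of-ratios size factors (adjusted p = 0.450). At these sites the decrease was measured on both sides. At the other sites GAL4-ACF1 had at most 1 count. The reporter on 3RHet at 2353716 had 1 and 0 counts in GAL4-ACF1 and 344 and 107 in GAL4, a ratio of 606-fold with a 95% counting interval from 108 to 23986 (edgeR adjusted p = 0.00810). On X at 22197563 the ratio was 614-fold (109 to 24342, edgeR adjusted p = 0.0309).

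The remaining 5 had 0 counts in both GAL4-ACF1 libraries. The reporter on 2L at 21858516 had a level at least 161-fold lower than in GAL4, where it had 279 and 98 counts (edgeR adjusted p = 0.0317). At 24289137 on 3L expression in GAL4-ACF1 was lower by at least 125-fold (adjusted p = 0.00950 by edgeR). On 3LHet at 2481486, with 187 and 328 counts in GAL4, the bound was 84.4-fold (edgeR adjusted p = 0.00909). On 3R at 904236, with 220 and 270 counts in GAL4, it was 76.7-fold (edgeR adjusted p = 0.0131), and on 3R at 1035381, with 27 and 76, it was 25.5-fold (edgeR adjusted p = 0.00810). Without GAL4 replicate 1 the bounds were 74.9-fold at 2L 21858516, 44.4-fold at 3L 24289137 and 50.1-fold at 3R 904236, and the ratios were 285-fold at 3RHet 2353716 and 130-fold at X 22197563. Without GAL4 replicate 2 these were 271-fold, 250.4-fold, 222-fold, 934-fold and 1310-fold in the same order, and the bound at 3R 1035381 was 15.6-fold. In GAL4-HP1 these sites differed among themselves. The reporter at 904236 had 0 and 1 counts there, the one at 2481486 had 29 and 48, and the one at 1035381 had 81 and 139. The call at 904236 was lost without GAL4-ACF1 replicate 1, and those at 2L 21858516, X 22197563 and 4 1252113 without either GAL4-ACF1 library. The call at 2L 21858516 was also lost without either GAL4-HP1 library, at adjusted p of 0.0530 and 0.0538.

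ACF1 without the GAL4 domain left the 63 reporters closer to the control. Expression was lower for 38 of 61 (62.3%), against 387 of 558 arm reporters (69.4%). Both ACF1 libraries lay below both GAL4 libraries for 18 of the 63 (28.6%), where 33.9% of all reporters did, and above both for 6 (9.52%), where 9.48% did. The 6 were on X at 21191487 and 21262719, on 3R at 124940 and 398375, and on 3RHet at 743345 and 2445889, the last pair with at most 16 counts. Median expression was 17.3 and 6.65 for the 63 and 20.7 and 13.7 for the arm reporters. The median log2 fold change was −0.40 for the 63 and −0.57 for the arm reporters, and the difference of 0.17 was 0.33 in replicate 1 and −0.27 in replicate 2, so it had no stable direction. Per library the 63 lay 0.26 and 1.05 below the arm reporters on the log2 scale, against 0.36 and 0.49 in GAL4 (exact two-sided permutation p = 1). None of the 63 passed edgeR's test, where 1.34% of all reporters did. Before adjustment, p was under 0.05 for 8 of the 63 and 98 of all. DESeq2 called 5 of the 63 and 43 of all on the same library sizes. With median-of-ratios size factors it called 3 of the 63 and 37 of all. All comparisons with GAL4 share its 2 libraries, and a high or low control value moves them together.

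GAL4-HP1 and GAL4-ACF1 were also set against each other, in a contrast without the control. The fit still held all 16 libraries, so the GAL4 libraries entered the estimate of the spread. For GAL4-HP1 against GAL4-ACF1, 3 of the 63 passed edgeR's test, all higher in GAL4-HP1 (4.76%), where 4.14% of all reporters passed. Before adjustment, p was under 0.05 for 13 of the 63 and 159 of all. The median fitted log2 difference over all reporters was 0.60 relative to library totals and 0.0026 with library sizes from the deposited scaling, which left 1 call. DESeq2 with median-of-ratios size factors gave 5 calls higher and 2 lower. Over all reporters the deposited scaling called 1.87%, and DESeq2 with these size factors 10.8%. The reporter on 3R at 1035381 had an expression of 2.51 and 2.29 in GAL4-HP1 and 0 in both GAL4-ACF1 libraries, 1.04 and 2.03 in ACF1 and 0.713 and 1.5 in GAL4. It was at least 51.8-fold higher in GAL4-HP1 than in GAL4-ACF1 (edgeR adjusted p = 0.00640), and it was the only one of the 63 for which both GAL4-HP1 libraries lay above both GAL4 libraries. The reporter on 3LHet at 2481486 had 1.88 and 6.77 in GAL4-HP1 and 0 in both GAL4-ACF1 libraries, with 8.93 and 3.83 in ACF1 and 13.6 and 17.7 in GAL4. It was at least 18.1-fold higher in GAL4-HP1 (edgeR adjusted p = 0.0405), a bound of 35.8-fold without GAL4-HP1 replicate 1 and 9.95-fold without replicate 2. The reporter on X at 20558939 had 4.56 and 9.38 in GAL4-HP1, 1.03 and 0.936 in GAL4-ACF1, 15.6 and 6.65 in ACF1 and 16.8 and 12.7 in GAL4, and was 3.41 ± 0.65 higher on the log2 scale (SE, edgeR adjusted p = 0.0148). The call on 3LHet was lost without any 1 of the libraries of GAL4-HP1, GAL4-ACF1 or GAL4. The call on X was lost without GAL4-HP1 replicate 2, where the difference was 2.48, without GAL4-ACF1 replicate 1 and with library sizes from the deposited scaling.

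The 4 strongest in GAL4 of the reporters at the proximal ends of the arms are described next. Both GAL4-HP1 libraries lay below both GAL4 libraries for 2 of them, where 61.9% of all reporters did so. The reporter on 3R at 398375, ranked 6 of 749 in GAL4, had 2280 and 1968 in GAL4-HP1, 3724 and 9706 in GAL4-ACF1, 7991 and 3589 in ACF1 and 1855 and 2402 in GAL4. GAL4-HP1 lay within the range of GAL4. The higher ratios in GAL4-ACF1 went with lower gDNA counts, at 3474 and 823 against 4594 and 3022 in GAL4, while the site's share of the cDNA library was 4.83% and 4.02% in GAL4-ACF1 against 2.96% and 3.96% in GAL4. In replicate 1 both counts thus moved with the ratio, and in replicate 2 mainly the gDNA count. The reporter on X at 21262719 had 291 and 204 in GAL4-HP1, 400 and 504 in GAL4-ACF1, 658 and 625 in ACF1 and 457 and 460 in GAL4. Only the GAL4-HP1 libraries lay below both GAL4 libraries here. The reporter on 3R at 213162 had 311 and 296 in GAL4-HP1, 248 and 278 in GAL4-ACF1, 569 and 375 in ACF1 and 488 and 255 in GAL4, so that both tethered proteins overlapped GAL4. The reporter on X at 21877163 had 165 and 259 in GAL4-HP1, 413 and 200 in GAL4-ACF1, 292 and 633 in ACF1 and 319 and 3287 in GAL4. GAL4-HP1 lay below both GAL4 values, but the value of 3287 rests on 108 gDNA counts, against 2075 in the other replicate. Weakest in GAL4 at the proximal ends of the arms were 4 reporters. They were those on X at 21507575 and 22166387, on 3L at 23220223 and on 3R at 1035381. At 23220223 there were 0 and 1 cDNA counts in GAL4-HP1, 0 in both GAL4-ACF1 libraries, 2 and 0 in ACF1 and 60 and 0 in GAL4.

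Reporters at neighbouring sites did not always behave alike. On 3RHet, 1299 bp separated the reporter at 2506694 (plus orientation) from that at 2507993 (minus). The first had 0.512 and 0.326 in GAL4-HP1, 2.83 and 1.35 in GAL4-ACF1, 1.90 and 2.19 in ACF1 and 149 and 9.61 in GAL4. The second had 8.65 and 3.27 in GAL4-HP1, 6.71 and 3.16 in GAL4-ACF1, 51.0 and 13.3 in ACF1 and 18.7 and 17.3 in GAL4. The second was thus the stronger in every library of GAL4-HP1, GAL4-ACF1 and ACF1 and in GAL4 replicate 2, and the first was stronger only in GAL4 replicate 1, where its gDNA count was 354 against 1910 in replicate 2. On 3R, 2624 bp separated 479970 from 482594, both in plus orientation. The first had 220 and 122 in GAL4-HP1, 111 and 361 in GAL4-ACF1, 556 and 163 in ACF1 and 146 and 197 in GAL4. The second had 70.5 and 23.9 in GAL4-HP1, 63.5 and 69.8 in GAL4-ACF1, 156 and 90.5 in ACF1 and 73.2 and 145 in GAL4, and was the weaker in all 8 libraries.

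The reporters next to the position limits had these values. On 2L the reporter just inside, at 21000965, had 0 and 0.0194 in GAL4-HP1, 1.56 and 0 in GAL4-ACF1, 0 in both ACF1 libraries and 4.07 and 3.95 in GAL4. The reporter just outside, at 20991427, had 0 and 10.8 in GAL4-HP1 and 1.46 and 0.375 in GAL4. On 3L the inner one, at 22637050, had 2.98 and 0.138 in GAL4-HP1 and 1.69 and 3.33 in GAL4, and the outer one, at 21644076, had 7.15 and 9.51 in GAL4-HP1 and 28.4 and 30.1 in GAL4. On X the inner one was that at 20558939, and the outer one, at 20444792, had 0 and 12.8 in GAL4-HP1 and 0.183 and 0 in GAL4. On 3R the inner one was that at 1035381, and the outer one, at 1610727, had 61.9 and 55.6 in GAL4-HP1 and 132 and 305 in GAL4. Levels in GAL4 differed by a wide margin across the limits on 3L and 3R with the outer reporter higher, and on X with the inner reporter higher. They were low on both sides on 2L.

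The choice did not use barcode base composition or orientation. The barcodes of the 63 had a median GC content of 52.4%, against 47.6% for the arm reporters, which is 1 base of 21. Plus orientation was found for 37 of the 63 (58.7%) and 247 of 561 arm reporters (44%). It was most frequent on chromosome 4 (4 of 5), proximal 3R (8 of 10) and proximal 2L (7 of 9). Lower shares were found on proximal 3L (6 of 11), the scaffolds (7 of 15) and proximal X (5 of 13). The log2 difference between replicates had an SD of 1.55 in GAL4-HP1, 1.71 in GAL4-ACF1, 1.95 in ACF1 and 1.51 in GAL4 for those of the 63 above 0 in both libraries, and of 1.86, 1.93, 1.85 and 1.27 for the arm reporters in the same order.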

How the data were processed

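Barcodes were counted by the authors in 8 cDNA and 8 gDNA libraries of 4 conditions with 2 replicates each, and the deposited counts are whole barcode reads without normalization. The deposited expression is a ratio of cDNA to gDNA counts, multiplied by 1 factor per library that holds library size and a spike-in of 2.5% of other barcoded cells. The factor was checked to be the same for all reporters of a library. It sets the level of a whole library, and cancels where the 63 reporters are set against the arm reporters. The submitters' processing notes name build dm3. The counting software is not given in the sources used here, and the spike-in barcode list, which carries no counts, was not used. No genome of that build was used, so sites carry no gene annotation or genomic sequence.

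Reporters and lists were chosen with earlier results of these data known. Log2 fold changes were formed from the means of both replicates without a pseudocount. Reporters at 0 in the treated condition were kept as the lowest rank in medians, and those at 0 in GAL4 had no ratio. Single reporters were tested with edgeR 4.0.16 (R 4.3.3) on the counts of all 749 reporters in 16 libraries and 8 groups, with column totals as library sizes (common dispersion 0.413). The test asked whether cDNA changed beyond gDNA, with Benjamini-Hochberg adjustment over 749 and a threshold of 0.05. The SE given with a fitted change was back-calculated, as its absolute value over the square root of the test's F statistic. The study discards reporters at 0 in a condition, which would leave 45 of the 63 and 642 in all. This was run as an alternative, as were DESeq2 1.42.0, other scalings and filters and leaving out each replicate. Scripts were tested on simulated data. Bounds set 3 counts over both libraries where a condition was at 0, and ratios with 1 to 3 counts have a 95% exact binomial interval.

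Reporters were named by a rule. It took all those on chromosome 4 and the scaffolds. Per comparison it took up to 6 past the threshold with the largest fitted change in the same direction in both replicates. Of those at the proximal ends of the arms, it took the 4 strongest and 4 weakest in GAL4. It also took those at 0 in both GAL4-HP1 libraries, pairs within 10 kb and those next to a limit. Further calls for GAL4-ACF1 and the sites above GAL4 were named after their values were seen.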

Additional observations from a re-analysis of the deposited data

Results flagged for a closer look

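The change differed between the tethered proteins at 3 of the 63 sites (4.76%), by edgeR's test of GAL4-HP1 against GAL4-ACF1. In each the level was higher in GAL4-HP1. Over all reporters 4.14% passed, 29 higher in GAL4-HP1 and 2 lower, so share and direction were near those of the whole table. With library sizes from the deposited scaling, 1 of the 3 calls was left. The fitted log2 difference was 9.79 on 3R at 1035381 (edgeR adjusted p = 0.00640) and 8.06 on 3LHet at 2481486 (edgeR adjusted p = 0.0405). Both GAL4-ACF1 libraries were at 0 there, so these fitted values depend on the prior count and are no bounds. On X at 20558939 it was 3.41 (edgeR adjusted p = 0.0148), with counts in every library.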

How the results depend on the processing

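Counts of calls among the 63 reporters depended on the tool and on single libraries. Over all reporters, DESeq2 on the same library sizes called 4.01% for GAL4-HP1 against GAL4, 23.9% for GAL4-ACF1 and 5.74% for ACF1. For GAL4-HP1 against GAL4-ACF1 it called 13.1%. With median-of-ratios size factors the shares were 2.4%, 15.5%, 4.94% and 10.8% in the same order. With the deposited scaling they were 1.07%, 11.5%, 0% and 1.87%. For the tethered proteins against each other, the filters named below called 0.623% and 1.89% of fitted reporters, and cDNA alone 1.07%. For GAL4-HP1 against GAL4 (1 call), TMM normalization gave 0 (11 unadjusted), DESeq2 7 on the same library sizes and 5 with median-of-ratios size factors, and the deposited scaling 3. Leaving out 1 library moved the calls among the 63 and over all reporters. For GAL4-ACF1 against GAL4 (9 calls), DESeq2 gave 15 on the same library sizes. Reporters above 0 in every condition gave 2 calls, at least 10 counts in every library 4 and cDNA alone 3. The shares over all reporters fitted were 6.54%, 12.2% and 6.41% under those settings, in that order. Fewer of the 63 were in the filtered fits. The calls moved here too when 1 library was left out, among the 63 and over all reporters. For ACF1 against GAL4 (0 calls), DESeq2 gave 5 and 3, and calls also moved when 1 library was left out. For GAL4-HP1 against GAL4-ACF1 (3 calls), DESeq2 gave 7 under both size factors. The deposited scaling, both filters and limits 500 kb nearer the centromere gave 1 each, and cDNA alone 0 (7 unadjusted). Leaving out 1 library again moved the calls among the 63 and over all reporters. The difference in median log2 fold change from the arm reporters ran from −0.68 to 0.10 for GAL4-HP1, from −0.66 to 0.0059 for GAL4-ACF1 and from −0.27 to 0.33 for ACF1 when libraries or replicates were left out. In GAL4 expression it was −0.10 with at least 10 counts, −0.55 with limits 500 kb farther from the centromere, −0.67 without chromosome 4, 0.21 without the scaffolds and −0.88 without proximal 3R, the last chosen after seeing the data. It was −0.49 to −0.36 in single replicates. Beyond fewer members in a fit or group, the cause was not tested. With the replicate block the calls were 1, 10, 0 and 2 in the order above, where 0.668%, 12.4%, 0.267% and 3.2% of all reporters passed. The difference for GAL4-ACF1 was then 0.0026. Same-numbered replicates deviated together with r of −0.043 to 0.19. Such values cannot decide whether the numbers pair the samples.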
